A study of Saccharomyces cerevisiae with 20 samples.

Results

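The genes of 6 yeast transcription factors that act in the response to high salt, HOT1 (YMR172W), SKO1 (YNL167C), MSN2 (YMR037C), MSN4 (YKL062W), SMP1 (YBR182C) and MSN1 (YOL116W), were followed through salt stress and recovery by ChIP-chip. They were chosen by name, as the genes of factors that act with or beside the osmostress kinase Hog1, and all 6 had values, out of 5985 nuclear protein-coding genes analysed and 6685 open reading frames (ORFs) listed. The data concern the chromatin of the genes that encode these factors, not the binding of the factors. In ChIP-chip, DNA recovered with an antibody is hybridised to a tiling array and set against input DNA.

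All samples came from *Saccharomyces cerevisiae* strain BQS1350, which carries a myc tag on Gcn5 and was grown in YPD. Sample A was taken in log phase before stress, sample B 1 h after transfer to 1 M KCl and sample C once cells had adapted to 1 M KCl. Sample D was taken 1 h after the return to YPD without KCl, and sample E after recovery. In each of the 5 samples, Gcn5, H3K18ac, H4K16ac and total histone H3 were measured, which gave 20 files, 1 for each antibody and sample. Levels are a ChIP signal on a log scale whose base is not given, in arbitrary units, so changes are given as differences, and a level of one antibody cannot be compared with that of another. The study's methods give the same catalogue number for the H3K18ac and the H3 antibody.

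When the outside of a yeast cell becomes more concentrated, water leaves, and the sensors Sln1 and Sho1 activate the kinase cascade that ends in Hog1. Hog1 enters the nucleus and acts there largely through sequence-specific factors, which bring it to the genes for glycerol synthesis and for protection from stress. Hot1 recruits Hog1 to genes such as GPD1 and STL1. Sko1, a bZIP protein of the ATF/CREB family, represses its targets together with Cyc8 and Tup1 and becomes an activator once Hog1 phosphorylates it. Smp1 is a MADS-box protein related to mammalian MEF2, and Msn1 is related in sequence to Hot1. Msn2 and Msn4 are paralogous zinc finger proteins that bind the stress response element and serve the general stress response, of which osmostress is only one trigger. Gcn5 is the catalytic subunit of the SAGA acetyltransferase complex, and H3K18 is among the lysines it acetylates. H4K16 is acetylated mainly by Sas2.

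Each gene was described by 38 bins: 9 upstream, 20 over the ORF and 9 downstream. Bins are numbered 0 to 37, so that bin 8 adjoins the start codon and bin 29 the stop codon. The upstream level is the mean of the 9 upstream bins, the downstream level the mean of the 9 downstream bins, and the ORF level the mean of the 8 bins in the central 40% of the ORF. With 1 file per antibody and sample there was no replicate and no test. A difference over 0.2 in size was counted as a rise or a fall, and was set against the spread of the 4 samples other than B and against the same difference at all 5985 genes. The SDs below are over those 4 samples, which differ in growth state, and are not replicate errors.

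Although the methods place the outer end of the flanking bins midway between genes, flanking bins of neighbouring genes often held the same signal. Of 5844 pairs of neighbouring genes, 2836 had flanking bins that matched at some shift of whole bins with a Pearson r above 0.95 over the 20 files. Among these pairs the shift followed the distance between the genes (Spearman rho 0.956, a description across gene pairs). The 9 upstream bins of HOT1 matched the 9 upstream bins of its divergent neighbour EAR1 in reverse order (r = 0.977). Upstream of SMP1, 8 bins matched the downstream bins of YBR182C-A (r = 0.998). On the downstream side, 7 bins of HOT1 matched the upstream bins of DDR48 (r = 0.998), 6 bins of SKO1 those of FMP41 (r = 0.986), 5 bins of MSN4 those of BLI1 (r = 0.998) and 3 bins of SMP1 those of RPS6B (r = 0.957). These values belong to both genes. In each file, 1 value also recurred at many genes, in 0.357% to 1.21% of all bins. It stood in 47 of the 4560 bin values of the 6 genes, of which 41 were downstream, 6 in an ORF and 0 upstream. Downstream differences of single genes that it touches are given without such bins as well, an alternative chosen after seeing the data. Counts and medians over the 6 genes keep these bins. No such match was found on either side of MSN2 and MSN1 or upstream of SKO1 and MSN4.

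Before stress and throughout, the 6 genes had little in common. Upstream Gcn5 set MSN2 apart: its level was 0.50 ± 0.14 (SD over samples A to E, n = 5 samples), above 96.8% of genes. The other 5 genes lay between -0.22 and -0.39, with ranges over the samples that overlapped from each gene to the next. Upstream H4K16ac was highest at MSN2, at 1.12, and HOT1, at 1.10, whose ranges overlapped. SKO1 followed at 0.50 and was separate from both neighbours in the order. MSN4 at 0.22, MSN1 at 0.08 and SMP1 at 0.01 overlapped in turn.

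Upstream H3K18ac ran from SKO1 at 0.79, HOT1 at 0.76 and MSN2 at 0.58 down to MSN4 at 0.13, MSN1 at -0.11 and SMP1 at -0.13, with overlap between every pair next to each other in that order. Upstream H3 was lowest at HOT1, at -1.53, and MSN4, at -1.37, which overlapped. It was -0.90 at MSN2, and next came SMP1 at -0.38 and SKO1 at -0.36, which overlapped. MSN1 had the highest upstream H3, at 0.04, above 77.9% of genes. The best alignment of its upstream bins with the downstream bins of RRI2 placed 3 of the 9 bins inside RRI2. It fell short of the limit at r = 0.822, so whether these bins lie there is uncertain.

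**Figure D1:**
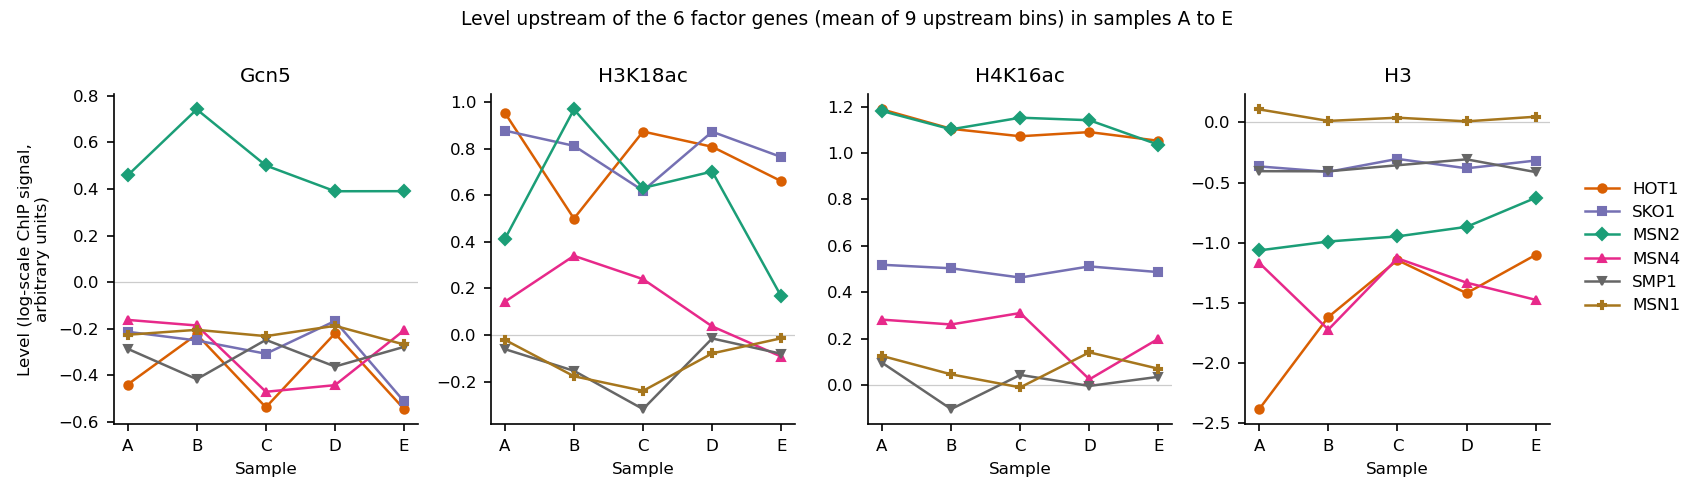
Upstream level of the 6 factor genes in samples A to E for each of the 4 antibodies. The horizontal axis gives the sample and the vertical axis the mean of the 9 upstream bins in arbitrary log-scale units, with 1 value per gene and sample, a line for each gene and a scale of its own for each panel. MSN2 is the only gene of the 6 above 0 for Gcn5 in each sample and has its highest H3K18ac, 0.97, in sample B.

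The response to 1 h of KCl was first read at the upstream H3K18ac, where the 6 genes split. MSN2 rose, HOT1 fell and the other 4 genes stayed within 0.2 of sample A. Across all genes, 13.1% rose and 22.4% fell, so that 1 rise and 1 fall among 6 genes is close to what the genome showed. The median difference of the 6 genes was -0.08, against -0.05 for all genes.

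MSN2, whose product activates the general stress response, had upstream H3K18ac levels of 0.41 before stress (A), 0.97 after 1 h of KCl (B), 0.63 once adapted (C), 0.70 after 1 h without KCl (D) and 0.17 after recovery (E). The highest was B and the lowest E. The rise from A to B was 0.56, larger than at 97.6% of genes and above the SD of 0.24. H3K18ac rose in each of the 9 upstream bins, by 0.30 to 0.96, with the largest difference in bin 5, where the level went from 0.43 to 1.39. The 4 bins next to the start codon gave a rise of 0.67 and the median over the 9 bins, an alternative chosen after seeing the data, one of 0.45.

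The Gcn5 signal at MSN2 was high in part of the upstream bins. In sample A it was 0.90 to 1.39 in bins 4 to 7, between -0.49 and 0.10 in bins 0 to 3, and -0.29 in bin 8. Samples A to E had upstream levels of 0.46, 0.74, 0.50, 0.39 and 0.39. Sample B stood above the other 4 samples, which lay between 0.39 and 0.50. The rise from A to B was 0.28, larger than at 91.2% of genes and above the SD of 0.05. With quantile normalization it was 0.14 and no longer a rise. It was largest in bin 7, where Gcn5 went from 1.21 to 1.99, and Gcn5 was higher in sample B in 8 of the 9 bins.

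The mean level of H3 moved little upstream of MSN2 under stress, at -1.06 in sample A, -0.99 in B, -0.95 in C, -0.87 in D and -0.63 in E. From A to B the difference was 0.07, with single bins between -0.33 and 0.84. The difference of the medians over the bins, an alternative chosen after seeing the data, was 0.19. From A to E the mean level rose by 0.44, more than at 96.8% of genes. From A to E, 20.1% of genes rose and 8.25% fell in upstream H3. Of the 6 genes, HOT1 and MSN2 rose and MSN4 fell. The fall at MSN4 depended on bins 6 and 7, where H3 was -1.63 and -2.10 in A and -3.44 and -3.89 in E. With these 2 bins left out, H3 at MSN4 was -0.97 in A and -0.85 in E, so that the direction turned. The median over all its upstream bins was -1.03 in A and -0.75 in E. H3K18ac relative to H3, the difference of the 2 signals bin by bin, at MSN2 went from 1.48 in A to 1.96 in B and was 0.79 in E. H4K16ac kept its high level upstream of MSN2, between 1.04 and 1.18 in all 5 samples.

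HOT1, whose product brings Hog1 to its target genes, went the other way. Its upstream H3K18ac was 0.95 in sample A, 0.50 in B, 0.87 in C, 0.81 in D and 0.66 in E. Sample B was the lowest of the 5. The fall of 0.45 was below the value of all but 3.2% of genes and was seen in each of the 9 bins, between -0.13 and -1.08. The SD was 0.12. Since all 9 bins are shared with EAR1, which encodes an adaptor of the ubiquitin ligase Rsp5, the fall cannot be assigned to either gene. The upstream bins of EAR1 fell by 0.38.

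Upstream H3 at HOT1 was -2.38, -1.62, -1.14, -1.42 and -1.10 in samples A to E. The lowest was A, and the rise of 0.77 from A to B was larger than at 99.6% of genes. It was largest in bins 0, 6 and 7, in which H3 was under -3 in at least 1 sample. Bin 7 held -8.92 in sample A and -5.80 in sample B, and only 0.0334% of genes had a lower upstream bin in sample A. Without these 3 bins, an alternative chosen after seeing the data, upstream H3 was -0.74 in A and -0.70 in B, a difference under 0.2, while the median over all 9 bins rose by 0.29. The fall of H3K18ac was then 0.34. Gcn5, which went from -0.44 in sample A to -0.22 in sample B over all 9 bins, rose by 0.22, and without the 3 bins the difference was -0.11, so that the direction turned. Relative to H3, H3K18ac upstream of HOT1 was 3.34 in A and 2.12 in B, a fall of 1.22, and without the 3 bins it was 1.97 and 1.59.

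**Figure D2:**
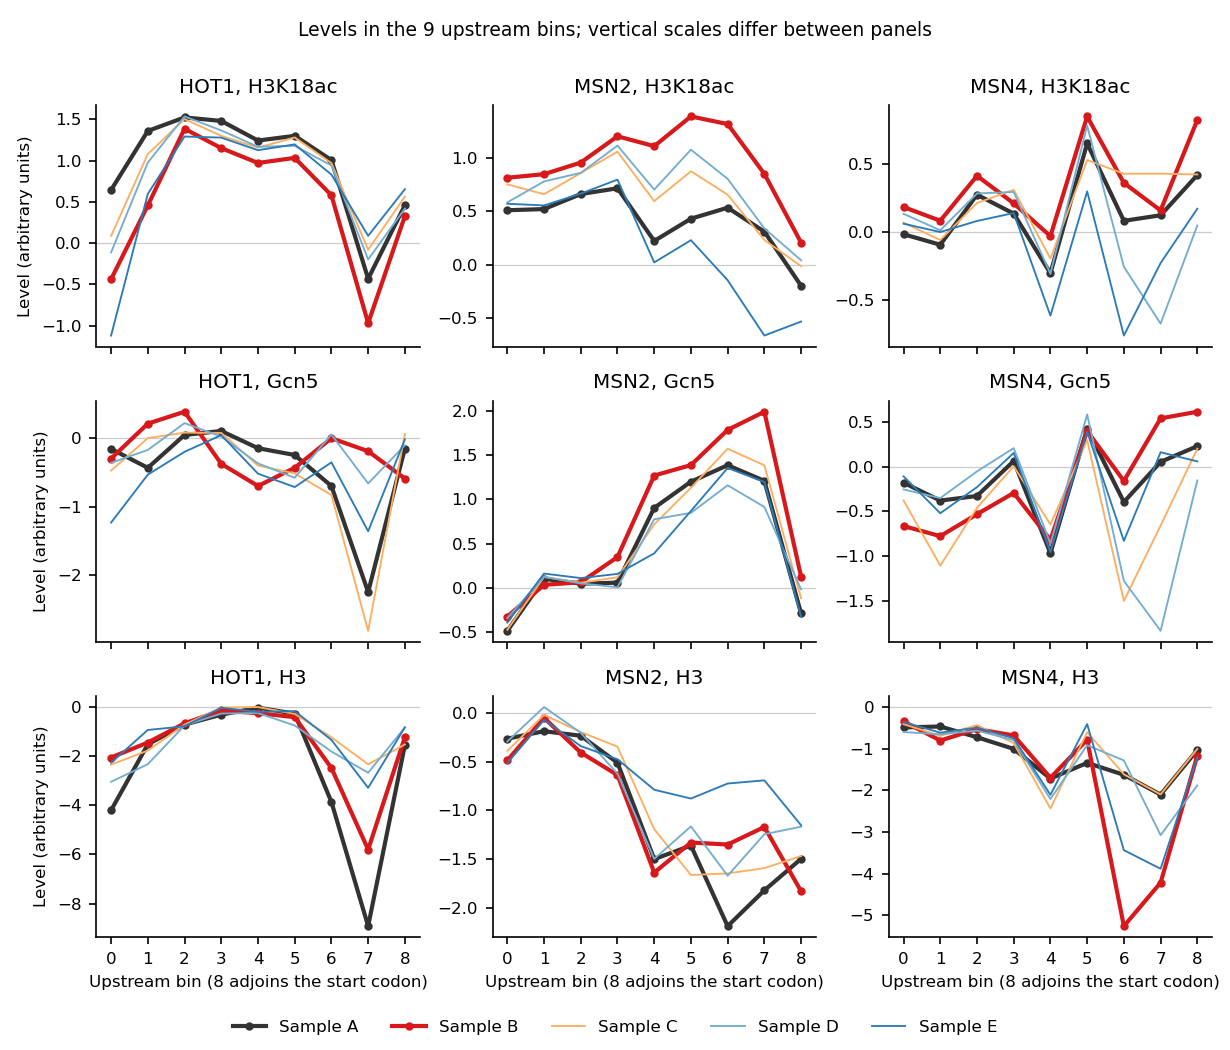
Levels of H3K18ac, Gcn5 and H3 in the 9 upstream bins of HOT1, MSN2 and MSN4, with samples A and B as thick lines and C, D and E as thin ones. The horizontal axis gives the bin, of which bin 8 adjoins the start codon, and the vertical axis the level in arbitrary units on a scale of its own in each panel. H3K18ac of sample B lies above sample A in all 9 bins of MSN2 and below it in all 9 bins of HOT1, and single H3 bins reach -8.92 at HOT1 and -5.26 at MSN4.

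MSN4, the paralog of MSN2, had upstream H3K18ac of 0.14, 0.34, 0.24, 0.04 and -0.09 in samples A to E. As at MSN2, the highest was B and the lowest E, and all 9 bins were higher in B than in A, by 0.04 to 0.40. The difference of 0.197 was just under the size counted as a rise and larger than at 86.8% of genes. It was 0.23 in the 4 bins next to the start codon and 0.09 by the median over the bins.

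In upstream H3, MSN4 stood at -1.17, -1.72, -1.13, -1.33 and -1.47 in samples A to E. The fall of 0.55 from A to B, below the value of all but 1.2% of genes, came from bins 6 and 7, where H3 went from -1.63 to -5.26 and from -2.10 to -4.22. Without these 2 bins H3 was -0.97 in A and -0.86 in B, so that the direction turned, and the median over the bins gave 0.23. H3K18ac relative to H3 rose by 0.75 over all 9 bins, from 1.31 to 2.06. The difference was 0.10 without the 2 bins, and the median over the bins rose by 0.22. Gcn5 upstream of MSN4 was -0.16 in A and -0.19 in B and lower in C and D, at -0.47 and -0.44, where MSN2 had 0.50 and 0.39. Without the 2 bins, Gcn5 at MSN4 was -0.16, -0.29, -0.30 and -0.12 in samples A to D, so that D was no longer low. The median over its 9 bins was -0.46 in C and -0.25 in D.

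Over the 9 upstream bins, the Pearson r between the profiles of the paralogs ran from 0.68, in sample E, to 0.88, in sample A, for H4K16ac. For H3 it ran from 0.30, in E, to 0.88, in A. It took both signs over the samples for Gcn5, from -0.54 in D to 0.43 in B, and for H3K18ac, from -0.17 in B to 0.55 in D. These are descriptions over bins of 2 genes that share arrays. Whether probes of the 2 genes share sequence was not analysed here.

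SKO1, whose product can repress or activate, moved little upstream in 1 h of KCl. Its H3K18ac was 0.88 in A, 0.81 in B, 0.62 in C, 0.87 in D and 0.76 in E, so that the adapted cells of sample C were the lowest. Its H4K16ac stayed between 0.46 and 0.52 and its H3 between -0.41 and -0.30. Gcn5 upstream of SKO1 was between -0.51, in sample E, and -0.17, in sample D.

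SMP1 and MSN1 had the lowest upstream acetylation of the 6 genes and were also lowest in H3K18ac in sample C. SMP1 had -0.06, -0.15, -0.32, -0.01 and -0.08 in samples A to E, and MSN1 had -0.02, -0.18, -0.24, -0.08 and -0.01. From A to B, H3K18ac was lower in 8 of 9 upstream bins of SMP1 and in 9 of 9 of MSN1, while neither mean difference reached 0.2. Upstream H4K16ac of SMP1 was 0.10 in A and -0.10 in B, lower in 9 of 9 bins, and samples C, D and E lay between -0.00 and 0.04. The difference of -0.1997 was just under the size counted as a fall. Of the 9 bins, 8 are shared with the downstream bins of YBR182C-A, which fell by 0.21.

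Over the 6 genes, the other antibodies gave few calls upstream from A to B. For Gcn5, 2 genes rose (HOT1 and MSN2) and 0 fell, against 16.8% and 7.75% of all genes. For H3, 1 rose (HOT1) and 1 fell (MSN4), against 16.4% and 8.62%. For H4K16ac, all 6 differences lay below 0, while 41.9% of all genes lay above 0. The median was -0.08 against -0.02 for all genes. Of the 6 genes, 0 passed 0.2 in either direction, against 4.86% of genes that rose and 8.94% that fell. For H3K18ac relative to H3, MSN2 and MSN4 rose and HOT1 fell, against 15.9% and 33.9%. For Gcn5 relative to H3, the same 2 genes rose and HOT1 fell, by 0.55, against 20.1% and 19.2%. Without the bins of low H3, the differences in Gcn5 relative to H3 were -0.15 at HOT1 and -0.24 at MSN4. Sample B lay beyond all 4 other samples at 3 of the 6 genes for H3K18ac (57.2% of all genes), at 2 for Gcn5 (64.3%), at 1 for H4K16ac (47.7%) and at 2 for H3 (42.3%).

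**Figure D3:**
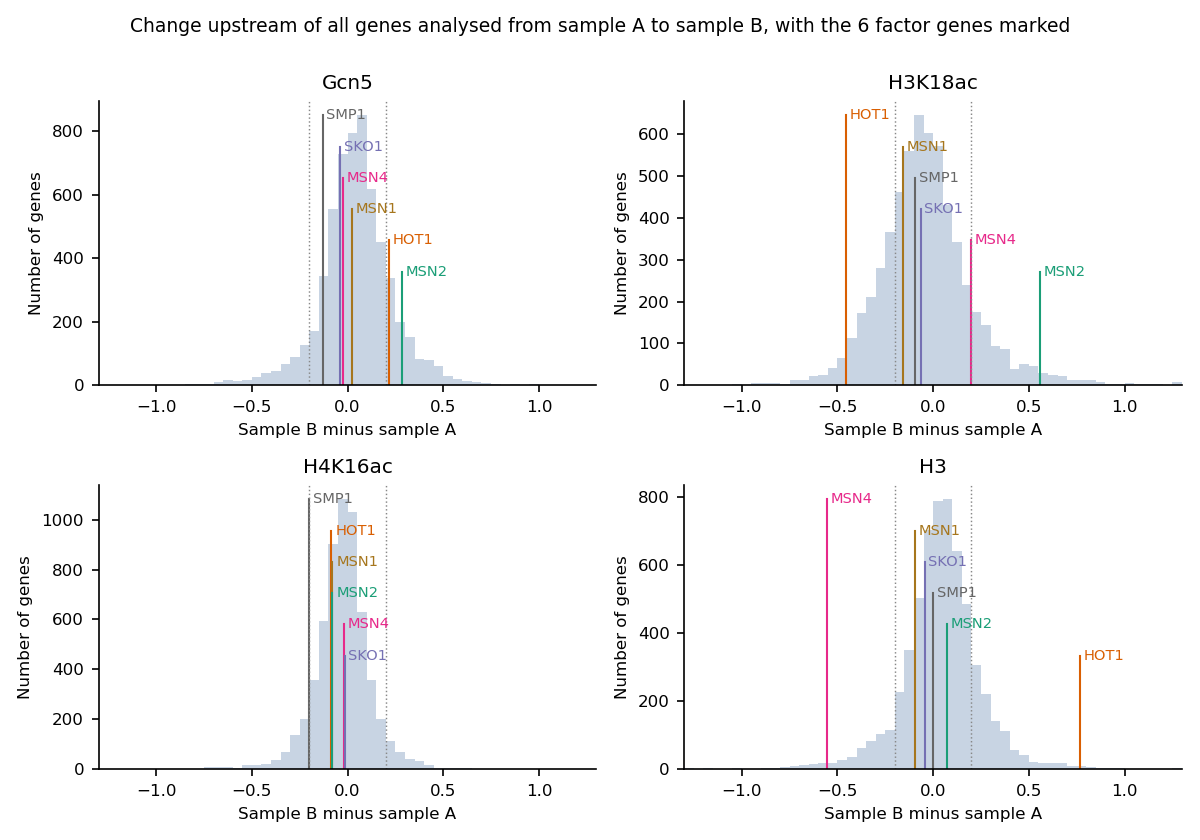
Distribution over 5985 genes of the change in upstream level from sample A to sample B for each antibody, with the 6 factor genes as labelled vertical lines whose height has no meaning. The horizontal axis gives sample B minus sample A in arbitrary units, with genes beyond the ends in the end bars, the vertical axis the number of genes, and the dotted lines mark differences of 0.2 in size. MSN2 at 0.56 and HOT1 at -0.45 lie in opposite tails for H3K18ac.

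Adaptation and recovery were read at upstream H3K18ac as well, and the comparisons from A to B, to C and to E share sample A. From A to C, MSN2 rose by 0.22 and SKO1, SMP1 and MSN1 fell by 0.26, 0.26 and 0.22, against 9.51% of all genes that rose and 14.2% that fell. The median over the 6 genes was -0.15, against -0.03 for all genes. From C to D, 1 h after KCl was removed, SKO1 rose by 0.25 and SMP1 by 0.30 while MSN4 fell by 0.20, against 20.8% and 13.7%. SKO1 and SMP1 thereby came back close to sample A, at 0.87 and -0.01 against 0.88 and -0.06. The fall at MSN4 depended on its 2 bins of low H3. With these left out, its H3K18ac was 0.19 in C and 0.18 in D, a difference under 0.2. The median over all its upstream bins was 0.31 in C and 0.05 in D.

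Sample E did not match sample A at 3 of the 6 genes. From A to E, H3K18ac fell by 0.29 at HOT1, 0.25 at MSN2 and 0.24 at MSN4 and rose at 0 genes, against 12% of all genes that fell and 3.26% that rose. The levels at these 3 genes in sample E were 0.66, 0.17 and -0.09. Without its 2 bins of low H3, MSN4 was at 0.15 in A and 0.02 in E, a difference under 0.2. Without its 3 such bins, HOT1 was at 1.23 in A and 1.02 in E. MSN1, SMP1 and SKO1 differed by 0.01, -0.02 and -0.11. With 1 file each, these differences and measurement error cannot be told apart.

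Over the ORFs, the 6 genes moved little. From A to B, 0 of the 6 genes passed 0.2 for Gcn5 (5.41% of all genes rose and 3.64% fell), 0 for H3K18ac (11.2% rose and 6.37% fell) and 0 for H3 (5.88% rose and 5.75% fell). The 6 differences ran from -0.07 to 0.11 for Gcn5 and from -0.07 to 0.09 for H3K18ac. For Gcn5, sample B lay outside the range of the other 4 samples at 5 of 6 genes, against 63.9% of all genes. It was higher at SKO1, MSN2 and MSN4 and lower at HOT1 and MSN1. The largest H3 difference was at SMP1, where the level was 0.24 in sample A and 0.42, 0.43, 0.35 and 0.44 in samples B to E, so that sample A stood apart from the rest.

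H4K16ac at the MSN2 ORF was the exception. Samples A to E held -0.70, -1.04, -0.92, -0.72 and -0.82, with a mean lower than at all but 2.0% of genes, and sample B was the lowest. The fall from A to B was 0.34, below the value of all but 1.0% of genes, while the SD was 0.10. It was seen in 18 of the 20 ORF bins. With all 20 bins in place of the central 8, it was 0.22. MSN2 was the 1 gene of the 6 that fell, against 2.96% of all genes, and 0 rose, against 5.9%. Sample B lay below the other samples at MSN2 alone, against 18.2% of all genes. H3 over the MSN2 ORF was 0.34 in A and 0.27 in B, and relative to H3 the fall of H4K16ac was 0.27. MSN4, with -0.07 in A and -0.02 in B, showed no such fall.

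**Figure D4:**
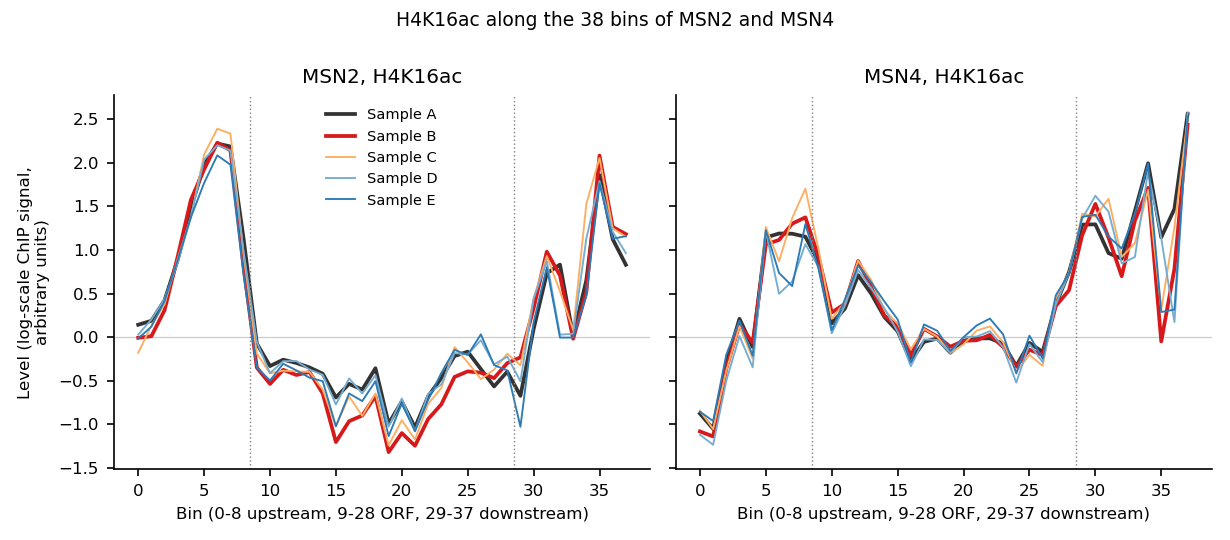
H4K16ac in the 38 bins of MSN2 and MSN4 in samples A to E. The horizontal axis gives the bin, with dotted lines at the start and the end of the ORF, and the vertical axis the level in arbitrary units. In the middle of the MSN2 ORF, sample B runs below sample A, with means over the central 8 bins of -1.04 and -0.70, and at MSN4 they are -0.02 and -0.07.

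Downstream of the ORFs, Gcn5 was higher in B than in A at all 6 genes, against 75.4% of all genes. The smallest of the 6 differences was 0.01, and only those of SKO1, MSN2 and MSN4 were over 0.2. This was 3 of 6 genes, while 28.7% of all genes rose and 4.14% fell. The median over the 6 genes was 0.20, against 0.11 for all genes. Sample B lay above the other samples at 4 of 6 genes, against 56.8% of all genes.

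MSN4 had downstream Gcn5 of -0.13, 0.34, 0.32, -0.16 and -0.09 in samples A to E. Both samples taken in KCl, B and C, lay above the 3 samples taken without it. The rise of 0.48 from A to B was larger than at 96.1% of genes, was seen in 8 of 9 bins and was 0.40 by the median over the bins. Without the 3 bins that hold the recurring value, samples A to E were at 0.09, 0.59, 0.50, -0.17 and 0.11. From C to D the level fell by 0.48, below the value of all but 0.3% of genes. Of the 9 bins, 5 are shared with the upstream bins of BLI1, where Gcn5 rose by 0.26.

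At SKO1, downstream Gcn5 was 0.08, 0.44, 0.22, 0.15 and 0.02 in samples A to E, again highest in B. The rise of 0.36 owed much to bin 32, which went from 0.00 to 1.23, and it was 0.11 as the difference of the medians over the bins and 0.25 as the median of the differences. H3 in bin 32 was -1.99 in A and -3.04 in B. Of the 9 downstream bins of SKO1, 6 are shared with the upstream bins of FMP41, bin 32 among them. Gcn5 upstream of FMP41 rose by 0.33. At MSN2 the level was -0.45, -0.05, -0.21, -0.17 and -0.22, and the rise of 0.40 was largest in bins 29 and 32, which were at -1.53 and -1.73 in sample A. Bin 32 held the recurring value in sample B, and without it and bin 34, which did so in 4 samples, the rise was 0.29. The difference of the medians over the 9 bins was -0.04, so that the direction turned, and the median of the 9 differences was 0.09, with 5 of 9 bins higher in B.

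HOT1 did not follow this order: its downstream Gcn5 was 0.35, 0.36, 0.73, 0.34 and 0.19 in samples A to E, highest in the adapted cells of sample C. From A to C, HOT1, MSN2 and MSN4 rose by 0.38, 0.23 and 0.45, against 8.52% of all genes. Without the bins at the recurring value the difference at MSN2 was 0.10 and no longer a rise. From C to D, HOT1 and MSN4 fell by 0.39 and 0.48, against 7.72%. Of the downstream bins of HOT1, 7 are shared with the promoter of DDR48, which encodes a stress-induced protein. The upstream Gcn5 level of DDR48 was 0.34 in A and 0.84 in C.

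**Figure D5:**
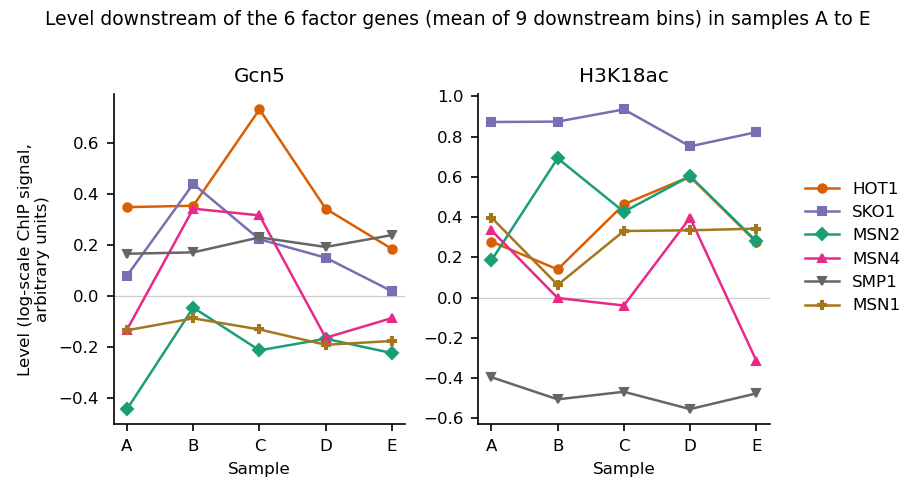
Downstream level of Gcn5 and H3K18ac at the 6 factor genes in samples A to E. The horizontal axis gives the sample and the vertical axis the mean of the 9 downstream bins in arbitrary units, with 1 value per gene and sample and a scale of its own for each panel. Gcn5 at MSN4 is at 0.34 and 0.32 in samples B and C and between -0.16 and -0.09 in the other samples, and H3K18ac at MSN1 is lowest in sample B.

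Downstream H3K18ac fell at MSN1 in sample B alone. Samples A to E held 0.40, 0.06, 0.33, 0.33 and 0.34. The 4 samples other than B had an SD of 0.03, and the fall of 0.34 was seen in 9 of 9 bins. H4K16ac in the same bins was lower by 0.17, also in 9 of 9 bins, while H3 was 0.21 in A and 0.22 in B. The upstream bins of PAP2, the gene next to MSN1, fell by 0.35 in H3K18ac, although they did not match those of MSN1 at the limit (r = 0.872).

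MSN2 rose in downstream H3K18ac by 0.51, from 0.19 to 0.69, and MSN4 fell by 0.34, from 0.33 to -0.00, but sample E of MSN4 was lower still, at -0.31. The difference at MSN4 was -1.48 in bin 36 and -0.85 in bin 37. These bins are among the 5 shared with the upstream bins of BLI1, where H3K18ac fell by 0.32. Without the bins at the recurring value, the differences were 0.57 at MSN2 and -0.26 at MSN4, with sample E of MSN4 at -0.50. Thus 1 of the 6 genes rose and 2 fell, against 15.1% and 17.6% of all genes. Downstream H4K16ac fell at 1 gene, MSN4, by 0.26 (10.6% of all genes fell). Without bin 35, which held the recurring value in sample B, this difference was -0.14 and no longer a fall. Downstream H3 fell at HOT1 and MSN4, by 0.21 and 0.32 (13.5% fell). Without the bins at the recurring value, these differences were -0.24 and -0.36.

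The patterns of the 6 genes over all antibodies, regions and samples, 60 values for each gene, were not alike. Pearson r between 2 of the 6 genes ran from -0.31, for MSN2 and MSN1, to 0.21, for MSN2 and MSN4. How r is spread over other pairs of genes was not analysed here. For each gene, the 2 genes with the highest r among all others are named. Picking the highest of so many makes a high r likely, so these values do not bear on how alike the 6 genes are. For HOT1 these were EAR1 (r = 0.75), which shares its upstream bins, and EPO1 (0.68). For SKO1 they were CAB2 (0.63) and KEL1 (0.62), for MSN2 SMF2 (0.63) and TIF4632 (0.62), for MSN4 ATG32 (0.58) and NAB3 (0.57), for SMP1 POR1 (0.58) and ADE57 (0.55), and for MSN1 MSB3 (0.62) and DPC25 (0.59). These are the highest of all other genes and descriptions only.

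The upstream regions of other genes of the same system give a frame for these values. Of 22 genes of the HOG pathway itself, from the sensor SLN1 to the kinase HOG1 and its phosphatases, 4 rose and 3 fell in H3K18ac from A to B, against 13.1% and 22.4% of all genes, with a median difference of -0.00 against -0.05. OPY2, which encodes a membrane anchor of the pathway, rose the most, from 0.46 to 0.95, and STE20, a kinase of the Sho1 branch, fell the most, from 1.26 to 0.90. In Gcn5, 2 rose and 2 fell, against 16.8% and 7.75%, and in H3, 4 rose and 3 fell, against 16.4% and 8.62%. At HKR1, which encodes a mucin-like osmosensor, H3 rose by 0.44.

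Of 21 genes that the factors are known to regulate, 12 rose and 5 fell in upstream H3K18ac, against 13.1% and 22.4% of all genes, with a median of 0.28 against -0.05. In H3, 1 rose and 14 fell, against 16.4% and 8.62%, with a median of -0.34 against 0.04. STL1, the glycerol transporter gene activated through Hot1, rose in H3K18ac by 1.11, from -0.69 to 0.43. HSP12, a target of Msn2 and Msn4, fell in H3 by 1.15, from -0.20 to -1.35. In Gcn5, 8 rose and 3 fell, against 16.8% and 7.75%. In H4K16ac, 1 rose and 10 fell, against 4.86% and 8.94%, and GPD1 fell the most, by 0.77. Relative to H3, H4K16ac rose at 8 and fell at 5 of these genes, against 10.5% and 25.2%, with a median of 0.01 against -0.07. GPD1 encodes the glycerol phosphate dehydrogenase of glycerol synthesis. In upstream H3K18ac, MSN2 at 0.56 lay above the median of these targets and the other 5 factor genes below it.

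Of 17 genes of other stress-response transcription factors, 7 rose and 1 fell in upstream H3K18ac, against 13.1% and 22.4% of all genes, with a median of 0.12 against -0.05. CIN5, which encodes a bZIP factor of the Yap family, rose by 1.32, from -0.16 to 1.16, and by 0.95 in Gcn5. In H3, 5 of the 17 rose and 5 fell, against 16.4% and 8.62%.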

How the data were processed

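Values of 20 samples were used, 1 file for each of 4 antibodies and 5 growth states. The methods describe 2 cultures, which the files do not keep apart. ChIP DNA was hybridised by the authors to Affymetrix yeast tiling arrays, turned into a signal with the Tiling Analysis Software, brought to one median per antibody and averaged per bin. What the authors deposited is thus a score per bin, on a log scale relative to input. The base of the log, the genome build and the probe positions are not given in the sources used here. Precision is limited by the number of arrays.

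Of 6685 ORFs, 6 without values and 1 with a value above 20 in size were left out. RefSeq's table of assembly R64 held 6006 of the ORFs and was used for names, gene types, neighbours and the spacing behind the check of flanking bins. The median over all bins of the 5985 nuclear protein-coding genes was set equal in the 5 samples of an antibody. Before this it ran from -0.090 to -0.054 for Gcn5, 0.268 to 0.300 for H3K18ac, 0.194 to 0.221 for H4K16ac and 0.110 to 0.145 for H3. Values relative to H3 are differences from the H3 value of that bin and sample. In each file 1 value recurred at many genes, and it differed from file to file. It filled 47 of the 4560 bin values of the 6 genes, which were kept. The alternative that left out doubtful bins, those equal to 0 or to the midpoint of the bins beside them, reached only 5 values, so a further one left out all bins at the recurring value. How this value arose is not given in the sources used here.

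Genes named are the 6 members, the 2 genes most like each over 60 values (each as its difference from the gene's mean over the samples, divided by the SD of such differences over all genes) and, from each list, genes with the largest rise or fall past 0.2, of which a few are given. Genes next to the members were named after their values were seen. The members, the lists and the size of 0.2 were chosen with earlier results of these data known. Promoter motifs and protein identity were not analysed here. Alternatives were other normalizations, other bins of a region, the median in place of the mean, fewer genes, doubtful bins left out and sample E in place of A. The scripts were tested on simulated data and used Python 3.11.15, numpy 2.4.6, pandas 2.3.3 and matplotlib 3.10.9.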

Additional observations from a re-analysis of the deposited data

How the results depend on the processing

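No paired analysis was possible because each antibody and sample has 1 file. For the median difference over the 6 genes, 68 of 79 values under the alternatives lay within the SD of the 4 samples other than B, and 11 moved by more. With sample E in place of A, H3 at promoters from A to B went from -0.02 to -0.17, H4K16ac from -0.08 to 0.0340, Gcn5 from -0.00 to 0.16, H3K18ac relative to H3 from -0.04 to 0.25, and H3K18ac from A to C from -0.15 to 0.0343. Gcn5 at promoters was -0.0388 with quantile normalization, 0.16 in the 4 bins next to the start codon and 0.0547 as the mean over the 6 genes. Gcn5 at ORFs, 0.03, was 0.00439 with values as deposited, -0.0121 with all 20 bins and -0.0108 without MSN2 and MSN4. The alternatives with sample E show in part the difference between samples A and E. The cause of the other moves was not tested.

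For single genes, 270 of 313 values stayed within that spread, 38 moved by more and 5 reversed. All 5 came from settings chosen after seeing the data. Gcn5 upstream of HOT1 was -0.14 by the median over bins and -0.11 without the bins of low H3, H3 upstream of MSN4 was 0.23 and 0.11, and Gcn5 downstream of MSN2 was -0.0391 by the median over bins. Leaving out bins at the recurring value touched only downstream levels. It ended the fall of H4K16ac downstream of MSN4, at -0.14, and turned the H4K16ac difference downstream of MSN2, 0.15, into a rise of 0.22. The settings that reversed a value leave out or give less weight to bins whose H3 or Gcn5 signal was far below the rest. The call of MSN2 in upstream H3K18ac held in every alternative run for it, between 0.45 and 0.67, and that of HOT1 between -0.34 and -0.66. The main limits are the single file for each antibody and sample, flanking bins shared with neighbouring genes, and single bins of very low signal.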
